A study of Saccharomyces cerevisiae with 6 samples.

Results

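The genes described here are the 5 alpha-specific genes of budding yeast, those that alpha cells express and a cells do not: MF(ALPHA)1, MF(ALPHA)2, STE3, SAG1 and AFB1. They were selected on their gene symbols and, as a group, for the size of their rise in the comparison of a pun1 deletion strain with wild type, so that the rise is given below as a description with no test. All 5 were on the array, each with 1 probe set, out of 5449 genes of Saccharomyces cerevisiae tested. Messenger RNA of 6 cultures of the Σ1278b background, which can grow as filaments, had been measured on 6 one-colour expression arrays. The groups were 3 cultures of a wild-type diploid and 3 cultures of a strain that the series design calls a homozygous diploid lacking PUN1, the gene of a plasma membrane protein. After growth in rich medium both strains spent 6 h in SLAD, a low-nitrogen medium with glucose and with amino acids for auxotrophies that the labels do not specify. The sample records also give 2% glucose, an OD600 of 0.6 and 30 C for all 6 cultures. No other allele or treatment is named.

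A yeast cell's mating type is set by the MAT locus. In alpha cells the alpha1 protein, acting with the general factor Mcm1, switches on the alpha-specific genes, and the alpha2 protein keeps the a-specific genes off. In a/alpha diploids a1 and alpha2 together repress the gene of alpha1 and the haploid-specific genes, so neither pheromone system is normally made. Alpha cells secrete alpha-factor, carry the receptor for a-factor and display alpha-agglutinin, which binds the agglutinin of a cells when mates meet.

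PUN1 read 13.35, 13.50 and 13.55 (log2) in wild type and 8.33, 4.83 and 4.93 in the deletion arrays, in the order of replicates 1, 2 and 3 as throughout. Deletion replicate 1 therefore kept 2.85% of the wild-type mean, above the background of its array. Background was taken as the 95th percentile of 1746 probe sets of fission yeast genes on the same arrays and lay at 5.67 to 5.74. The differences of those fission yeast probe sets between the groups ran from -0.52 to 0.30. Of the 5498 tested probe sets, 868 were higher in the deletion arrays (15.8%) and 540 lower (9.82%) by limma with Benjamini-Hochberg adjustment, with a median difference of 0.02 over all. Without deletion replicate 2 the counts were 507 and 284, and without deletion replicate 3 they were 535 and 325. Without wild type replicate 2, 313 were lower. The share of calls that were higher was 61.6%, against 49.7% after median centring and 47.9% after a further quantile normalization.

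For every member the lowest deletion array lay above the highest wild-type array. Groups that do not overlap in this direction were found for 26.7% of the tested probe sets. Because the contrast chose the members, nothing is read from 5 of 5 against that share. The median difference of the members was 4.27 log2 units, against 0.02 over all tested probe sets. Arrays of a culture's RNA cannot tell more cells expressing a gene apart from more RNA per cell.

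MF(ALPHA)1 (YPL187W) encodes the main precursor of alpha-factor, the peptide that alpha cells secrete to attract a cells. It read 5.87, 5.76 and 5.91 (log2) in wild type and 13.81, 13.78 and 13.75 in the deletion arrays. The groups lay 7.84 log2 units apart at their closest, while the deletion arrays spanned 0.06 and the wild-type arrays 0.15. The difference of means was 7.93 (SE 0.05, n = 3 per group), a 245-fold difference, and it ranked first among all tested probe sets. Its wild-type mean lay 0.12 above background, so this gene was close to undetected in wild type and the fold depends on where background is set. Against a stricter background, the 99th percentile of the fission yeast probe sets (6.52 to 6.69), no wild-type array was above it and the difference becomes at least 141-fold.

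MF(ALPHA)2 (YGL089C) encodes the minor alpha-factor precursor. Its values were 6.44, 6.79 and 6.35 in wild type and 13.43, 13.13 and 13.30 in the deletion arrays. Wild type replicate 2 was the highest of its group and deletion replicate 2 the lowest of its own, which makes this the member with the widest scatter in both groups (SD 0.23 and 0.15). The difference was 6.76 (SE 0.13), or 109-fold, second only to MF(ALPHA)1. The wild-type mean lay 0.80 above background, and 1 of the 3 wild-type arrays was above the stricter background. The precursors of both genes contain alpha-factor peptides, and signal shared between their probe sets was not tested.

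STE3 (YKL178C) encodes the G protein-coupled receptor with which alpha cells sense a-factor. It read 8.64, 8.87 and 8.70 in wild type and 12.96, 12.99 and 13.07 in the deletion arrays. Unlike the pheromone genes, STE3 was clearly detected in wild type, 3.01 log2 units above background. The difference was 4.27 (SE 0.07), or 19.3-fold, with single pairs of arrays giving between 17.0-fold and 21.6-fold.

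SAG1 (YJR004C) encodes alpha-agglutinin, the wall-anchored adhesin of alpha cells. Its values were 9.38, 9.52 and 9.25 in wild type and 13.12, 12.99 and 13.08 in the deletion arrays. The wild-type mean stood 3.66 above background. With 3.68 (SE 0.07), or 12.8-fold, SAG1 had the smallest difference of the 5 members.

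AFB1 (YLR040C) encodes a secreted protein that acts as a barrier to a-factor, the counterpart in alpha cells of the protease BAR1, which a cells use against alpha-factor. It read 9.32, 9.20 and 9.12 in wild type and 13.47, 13.38 and 13.34 in the deletion arrays. The wild-type mean stood 3.49 above background. The difference was 4.18 (SE 0.06), or 18.2-fold.

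**Figure D1:**
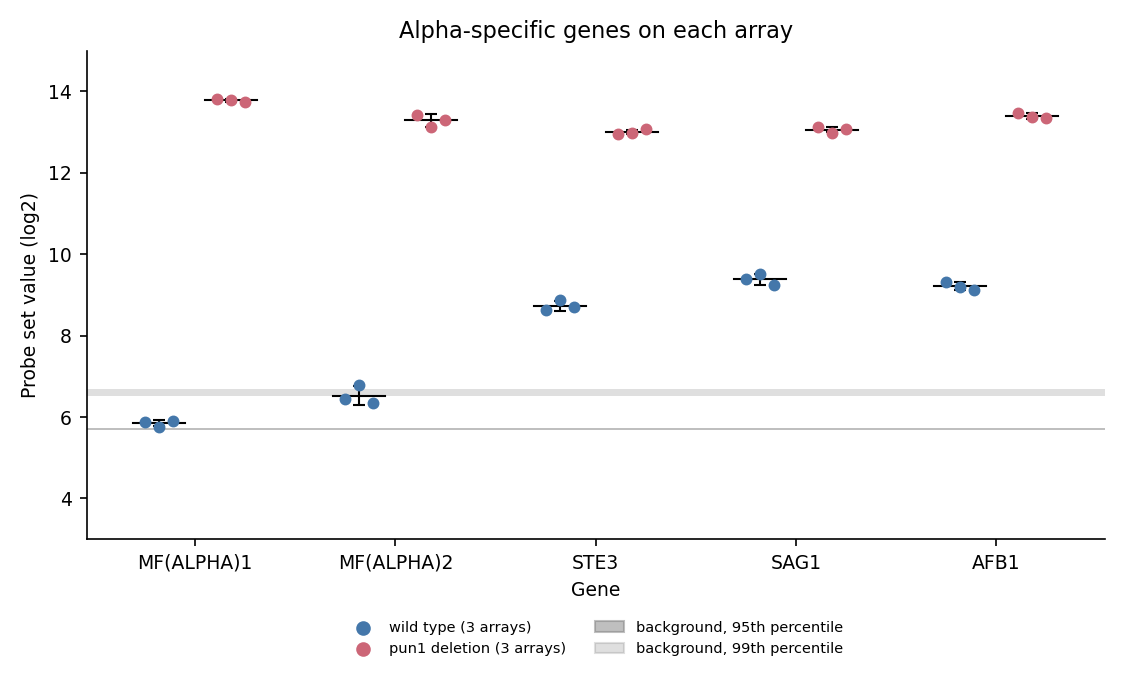
Log2 probe set values of the 5 alpha-specific genes (horizontal axis) on 3 wild-type arrays (blue points) and 3 pun1 deletion arrays (red points); black bars are the mean and SD (n = 3), and the grey bands are the ranges over arrays of the 95th and 99th percentile of the fission yeast probe sets. All deletion values lie between 12.96 and 13.81; MF(ALPHA)1 and MF(ALPHA)2 lie near background in wild type, while STE3, SAG1 and AFB1 lie 3.01 to 3.66 above it.

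The wild-type arrays thus divided the members into the pheromone genes, near background, and the receptor, agglutinin and barrier genes, above it. Only 4.07% of the 1746 fission yeast probe sets had a higher wild-type mean than MF(ALPHA)1 and 1.15% a higher one than MF(ALPHA)2, while none exceeded STE3, SAG1 or AFB1. Ordered by difference, the members ran MF(ALPHA)1, MF(ALPHA)2, STE3, AFB1 and SAG1. The step from STE3 to AFB1, 0.09, was smaller than the array-to-array spread of that step (SD 0.18), so these neighbours are not separated. The other steps were 1.17 from MF(ALPHA)1 to MF(ALPHA)2, 2.49 from MF(ALPHA)2 to STE3 and 0.50 from AFB1 to SAG1, each above its spread (SD 0.29, 0.31 and 0.19). With values raised to the stricter background the step between the pheromone genes shrank, at differences of 7.14 and 6.60.

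Within the groups the order of the arrays differed between members. The deviations from the group means were 0.26 or less, and nothing is read from that order. Wild type replicate 2 was the highest wild-type array for MF(ALPHA)2, STE3 and SAG1 but the lowest for MF(ALPHA)1. Deletion replicate 1, the array with residual PUN1 signal, was the highest of its group for MF(ALPHA)1, MF(ALPHA)2, SAG1 and AFB1, and the lowest for STE3. The largest of these deviations from a group mean was 0.26, for MF(ALPHA)2 on wild type replicate 2. Without deletion replicate 1 the median difference of the members was 4.29.

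The genes whose pattern over the 6 arrays came closest to the mean pattern of the members, each centred on its own wild-type mean, were HMLALPHA1, FAR1, HO, GPA1 and FUS3. Their root mean square distances to that pattern were 0.11, 0.21, 0.31, 0.41 and 0.69 log2 units. HMLALPHA1 was closer to it than any single member, the nearest of which was STE3 at 0.78. That pattern averages members whose differences ran from 3.68 to 7.93. The distance to it therefore mostly follows the size of a gene's difference, and no special likeness is read from it. The 5 closest genes are all known as mating-type or haploid genes, and they were ranked from the same contrast that chose the members. In the order of all differences FUS3 (6.33) stood just below MF(ALPHA)2, GPA1 (4.80) just above STE3, and STE18 (3.69) between AFB1 and SAG1. NEJ1 (3.30) came just below SAG1. FUS3, FAR1, HO and STE18 were above the stricter background on none of the 3 wild-type arrays. With values raised to it their differences were 5.70, 4.14, 3.88 and 2.95. That takes FAR1 and HO from above STE3 (4.27) to below AFB1 (4.18), and STE18 below SAG1 and NEJ1.

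The regulators that act on the members changed at the mating-type genes themselves. HMLALPHA1, the gene of the activator alpha1, read 6.93, 6.75 and 6.81 in wild type and 12.08, 12.09 and 12.18 in the deletion arrays, higher by 5.29 (SE 0.06, limma adjusted p = 1.9e-08). HMRA1, the gene of a1, read 9.05, 8.82 and 9.42 in wild type and 4.43, 3.98 and 4.34 in the deletion arrays, where no array was above background. It was at least 10.7-fold lower (limma adjusted p = 6.75e-06). The silent and expressed copies of these genes share sequence, so each probe set may read a MAT copy. An alpha1 gene that is on and an a1 gene below background are not what an a/alpha diploid shows; ploidy was not measured, and the loss of PUN1 and this difference lie in the same 3 arrays and cannot be told apart.

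For MCM1, the gene of the partner of alpha1, the groups overlapped: it read 12.00 to 12.12 in wild type and 11.99 to 12.17 in the deletion arrays, differing by 0.03 (SE 0.06, limma adjusted p = 0.74). TUP1, a corepressor, differed by -0.10 and its partner CYC8 by -0.35 (SE 0.06, limma adjusted p = 0.00777), a call lost without the 3 arrays of high ribosomal RNA signal (adjusted p = 0.0605; 0.00435 to 0.0605 over the alternatives). SIR1, SIR2, SIR3 and SIR4, whose proteins silence the spare mating-type copies, differed by -0.03, -0.09, -0.08 and 0.14 and did not pass. Of the 9 regulators measured 1 was higher, 2 were lower and 6 did not pass, with a median of -0.08; this is 11.1% higher and 22.2% lower, against 15.8% and 9.82% of all tested probe sets. HMLALPHA2, the gene of alpha2, had no named probe set. A probe set named HMRA2, whose gene repeats part of the alpha2 gene's sequence, read 10.47, 10.51 and 10.73 in wild type and 11.66, 11.71 and 11.74 in the deletion arrays. It was 1.13 higher (SE 0.07, limma adjusted p = 0.000113), opposite in direction to HMRA1, and which copy it read was not tested. IME4, a gene expressed in a/alpha diploids, went from between 9.17 and 9.39 to between 5.69 and 5.90, a log2 difference of -3.50 (SE 0.08, limma adjusted p = 6.11e-07). Its deletion values lay near background and below the stricter background, so the size of this difference depends on where background is set.

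**Figure D2:**
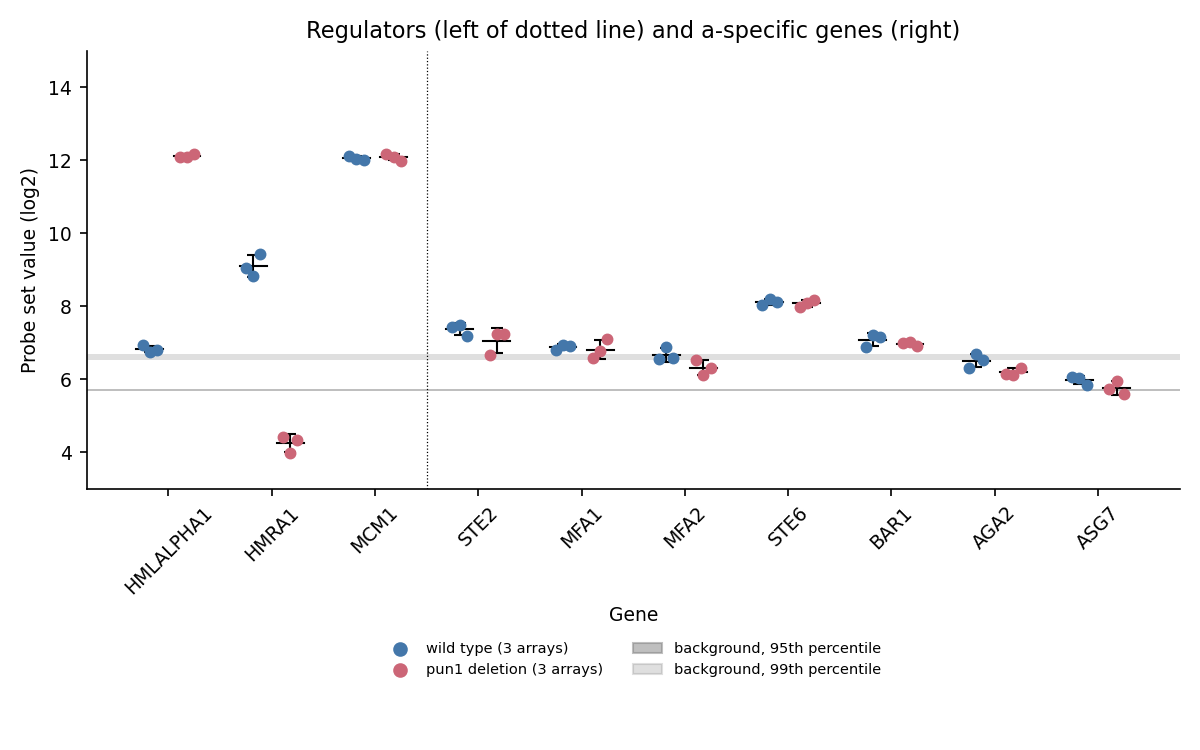
Log2 probe set values of HMLALPHA1, HMRA1 and MCM1 (left of the dotted line) and of the 7 a-specific genes (right) on 3 wild-type (blue) and 3 deletion arrays (red); black bars are the mean and SD (n = 3), and the grey bands mark the 95th and 99th percentile of the fission yeast probe sets. HMLALPHA1 and HMRA1 separate in opposite directions, while MCM1 overlaps and the a-specific genes differ by 0.35 or less.

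Of the a-specific genes, the counterparts of the members, none of the 7 measured passed limma (2 at an unadjusted p under 0.05). Over all tested probe sets 15.8% were higher and 9.82% lower, so with 7 genes nothing is read from this count. The median difference of the 7 was -0.21. STE2, the receptor for alpha-factor, read 7.44, 7.49 and 7.18 in wild type and 6.67, 7.25 and 7.25 in the deletion arrays, a difference of -0.31 (SE 0.17). STE6, the exporter of a-factor, read 8.03, 8.20 and 8.11 against 7.98, 8.09 and 8.17 and differed by -0.03. The a-factor genes MFA1 and MFA2 differed by -0.07 and -0.35, BAR1 by -0.12, AGA2, the adhesion subunit of a-agglutinin, by -0.32 and ASG7 by -0.21. Of their 42 values 41 were above background, so low signal from these probe sets was present in both groups. Summed over the 7 genes the linear values were 905 to 1032 in wild type and 794 to 905 in the deletion arrays; the sum over the 5 members went from 1722 to 1956 up to 49999 to 53631. Further quantile normalization brought 4 of the 7 past the threshold as lower. Under that scaling 760 of the 5498 tested probe sets were lower, against 540 in the main fit. With 7 genes nothing is read from this count either. With the replicate number as a block AGA2 passed (limma adjusted p = 0.0491, with 0.00415 to 0.174 over the alternatives). Without wild type replicate 1 AGA2 and BAR1 passed, and without deletion replicate 1 MFA2 did.

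Genes that turn the alpha-factor precursor into secreted peptide differed by 0.40 or less between the groups. The trimming proteases KEX2, KEX1 and STE13 read 10.65 to 10.70, 10.06 to 10.22 and 11.03 to 11.13 in wild type and differed by 0.02, 0.10 and 0.11. None of these passed (limma adjusted p = 0.862, 0.175 and 0.186). Of the 15 genes of maturation and secretion 4 were lower (26.7%, against 9.82% of all tested probe sets) and 11 did not pass, with a median of 0.02. The lower ones were SEC63 (-0.40, limma adjusted p = 0.00867) and SEC62 (-0.19), which bring precursors to the translocation channel, the channel gene SEC61 (-0.15) and SWP1 (-0.17), of the glycosylating enzyme. Leaving out the second wild-type or the second deletion replicate reduced the count to 1, and leaving out wild type replicate 1, wild type replicate 3 or deletion replicate 3 reduced it to 2. SEC61 was also lost with the replicate number as a block (adjusted p = 0.0513; 0.00612 to 0.42 over the alternatives).

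Most listed genes of the pathway that the receptor feeds were higher. Of the 15 genes of the mating pathway 9 were higher (60.0%, against 15.8% of all tested probe sets), 1 was lower and 5 did not pass, with a median of 0.68. The list was chosen with earlier results of these data known, so the 2 shares are a description and were not tested against each other. FUS3, the mitogen-activated kinase, read 5.95 to 6.05 in wild type and 12.33 to 12.35 in the deletion arrays, higher by 6.33 (SE 0.04, limma adjusted p = 7.8e-10) or, with values raised to the stricter background, by 5.70. FAR1, which links pheromone to cell cycle arrest, was 5.17 higher (SE 0.14), with 1 of 3 wild-type arrays above background. GPA1, the G alpha subunit that couples to the receptor, was 4.80 higher (SE 0.07), from 7.44, 7.69 and 7.57 to 12.32, 12.37 and 12.41. STE18, the G gamma subunit, was 3.69 higher (SE 0.09), with 2 of 3 wild-type arrays above background. The kinases STE20 and STE11 and the adaptor STE50 differed by -0.08, 0.12 and 0.14 and did not pass, and STE7 fell by 0.19. Leaving out the second replicate of either group, deletion replicate 3 or the 3 arrays of high ribosomal RNA signal, ended the call on STE7. Of other haploid-specific genes 3 were listed, HO, NEJ1 and RME1. All 3 were higher, by 4.96, 3.30 and 2.31, against 15.8% of all tested probe sets. They too were picked with earlier results of these data known, so nothing is read from that count. The size for HO depends on where background is set, and was 3.88 with values raised to the stricter background.

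Genes that act on the STE3 protein after it is made differed by 0.28 or less. AKR1, YCK1 and YCK2, which bring about its phosphorylation, differed by 0.11, 0.01 and -0.10, and the ubiquitin ligase gene RSP5 by -0.01; none of these passed. Of the 9 turnover genes SLA2, an endocytic adaptor, was higher by 0.17 (SE 0.04, limma adjusted p = 0.0194), PEP4, the vacuolar protease, was lower, at -0.18 (SE 0.04, limma adjusted p = 0.0229), and 7 did not pass. Each direction thus held 11.1% of the list, against 15.8% higher and 9.82% lower over all tested probe sets. Neither call held when the third replicate of either group was left out. Leaving out deletion replicate 1, deletion replicate 2 or wild type replicate 2 left 1 gene called.

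Of 11 genes of agglutination and fusion 9 were higher (81.8%, against 15.8% over all) and 2 did not pass, with a median of 0.53. This list too was chosen with earlier results of these data known, so its share is a description only. FUS1, needed for cell fusion, was 3.12 higher (SE 0.09, limma adjusted p = 2.01e-06), from 7.19, 7.29 and 7.43 to 10.27, 10.46 and 10.55. AGA1, which anchors the agglutinin of a cells to the wall, was 2.02 higher (SE 0.11). PRM1, of membrane fusion, was 1.03 higher, and FIG1, induced by pheromone, 0.73 higher. FIG1 was not above background on any wild-type array, which makes it at least 1.04-fold higher. FUS2 and PRM2, at 0.19 and 0.27, did not pass, and PRM2 was below background on every array.

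The machinery for a-factor, the ligand of STE3, was higher in part, while MFA1 and MFA2 themselves did not pass. Of 7 genes 5 were higher (71.4%, against 15.8% over all) and 2 did not pass, with a median of 0.37. Earlier results of these data were known when the 7 were chosen, so their share is a description only. AXL1, a protease that trims a-factor and also marks the axial budding of haploids, was 2.03 higher (SE 0.07, limma adjusted p = 6.58e-06). STE14, the methyltransferase, was 1.07 higher (SE 0.05, limma adjusted p = 2.27e-05), and RAM1 and RAM2, the farnesyltransferase subunits, 0.39 and 0.37 higher. STE24 and STE23 differed by -0.20 and 0.09.

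**Figure D3:**
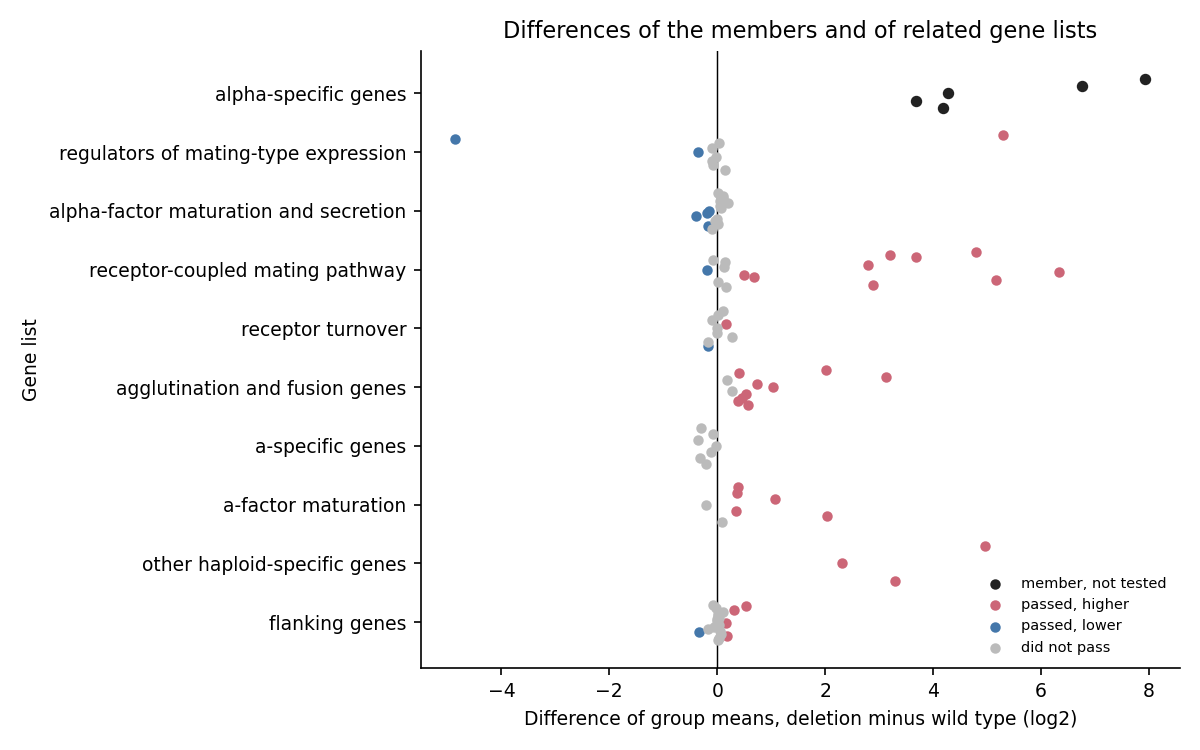
Difference of group means, deletion minus wild type (log2, horizontal axis), for the 5 alpha-specific genes (black, not tested) and each gene of 9 related lists (rows; red passed limma as higher, blue as lower, grey did not pass). The members run from 3.68 to 7.93, and the mating pathway reaches 6.33, while the alpha-factor maturation and receptor turnover lists lie between -0.40 and 0.28.

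Genes next to the members differed by 0.53 or less. Of the 20 measured neighbours, 2 on each side of each member, 4 were higher, 1 was lower and 15 did not pass, with differences from -0.34 to 0.53 and a median of 0.02. As shares of the 20 these were near the 15.8% higher and 9.82% lower of all tested probe sets, so these calls are no result about the neighbours. APL1, an adaptor subunit gene that is transcribed away from SAG1 on its upstream side, read 10.77, 10.85 and 10.82 in wild type and 10.76, 10.89 and 10.97 in the deletion arrays, a difference of 0.06 (SE 0.06). POS5 and UIP4, on either side of MF(ALPHA)1, differed by -0.08 and -0.02, LIF1 and MMS2, around MF(ALPHA)2, by 0.10 and 0.02, and RIC1 and TRX1, around AFB1, by 0.07 and 0.03. COY1 and LST4 flank STE3 and differed by -0.01 and 0.16, and MRX12, on the other side of SAG1, by -0.06. The neighbours that passed as higher were GUP2 at 0.53, MRN1 at 0.31, COX12 at 0.19 and LST4 at 0.16. LSO1, at -0.34, passed as lower but was below background on every array. Of the 12 alternatives MRN1 passed in 12, GUP2 in 9 (adjusted p 0.0107 to 0.0831), COX12 in 6 (0.00847 to 0.426) and LST4 in 2. LST4 was lost with the replicate number as a block (adjusted p = 0.074; 0.0466 to 0.216 over the alternatives), and 3 neighbours passed without any one array other than deletion replicate 1. YGL088W, beside MF(ALPHA)2, and NFG1, beside AFB1, had no named probe set and were not analysed here.

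**Figure D4:**
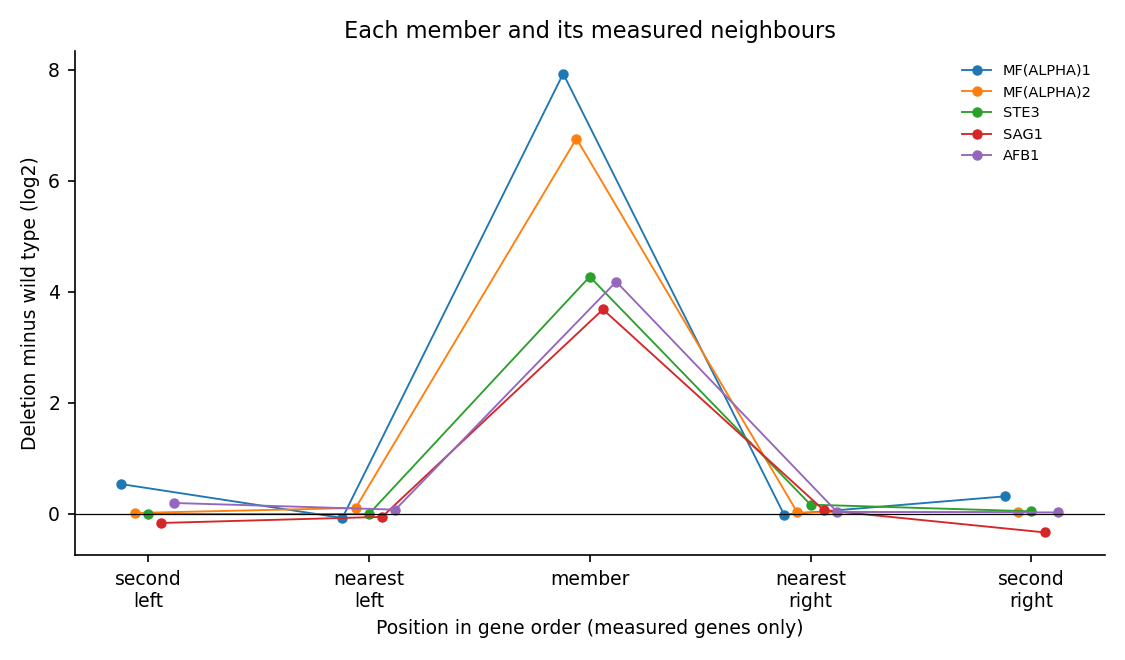
Difference of group means (log2, vertical axis) for each alpha-specific gene and the 2 nearest measured genes on each side in chromosome order (horizontal axis; lines join the genes of one locus and are offset slightly for clarity). The members stand at 3.68 to 7.93 and all neighbours between -0.34 and 0.53.

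Markers of other states that the cultures could hold were read as well. Of 5 meiotic markers 2 were higher, NDT80 by 0.43 and SPO11 by 0.68, against 15.8% of all tested probe sets. With 5 genes nothing is read from that count. SPO11 lay near background, at 5.84, 6.12 and 6.28 in wild type and 6.57, 6.74 and 6.96 in the deletion arrays. None of its wild-type values was above the stricter background. IME1, IME2 and SPO13 differed by 0.14, 0.06 and 0.13 without passing. The call on NDT80 was lost after quantile normalization (0.31, limma adjusted p = 0.0541) and without the 3 arrays of high ribosomal RNA signal (limma adjusted p = 0.0764), with 0.00541 to 0.0764 over the alternatives. The linear values summed over these 5 genes were 1671 to 1834 in wild type and 1964 to 2042 in the deletion arrays; their part in the differences above was not tested.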

How the data were processed

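The deposited log2 probe set values were made by the authors with GCRMA, a method with a sequence-based background step. GCOS 1.1 and limma are also listed, per the submitters' processing notes. A log base of 2 was inferred from the range of the values (3.31 to 15.15). Of 10928 probe sets, 7244 had 1 symbol in the platform annotation, 1 had several and 3683 had none. Gene IDs were matched to the RefSeq table of assembly R64, which updated 12 symbols and gave names and gene order only. Control and fission yeast probe sets were not tested. For genes with several probe sets the brightest was used. Value columns from outside the series numbered 0.

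Differences were fitted across all 5498 tested probe sets with limma 3.58.1 under R 4.3.3 (eBayes, two-sided, no covariates), with Benjamini-Hochberg adjustment over all of them and a threshold of 0.05. The fit was tested on simulated data with independent arrays, so that test does not cover correlated residuals. With 3 arrays per group, described in the design text as biological replicates, precision is limited. Members, lists and tests were chosen with earlier results of these data known. Named genes are the members, PUN1, up to 4 passing genes of each list by size, all regulators and a-specific genes, neighbours that were nearest or passed, the 5 genes most like the members and those beside them in the order of differences, plus IME4 and the meiotic genes as cell state markers. STE7, HMRA2, STE20, STE11, STE50, KEX2, KEX1, STE13, AKR1, YCK1, YCK2, RSP5, FUS2, PRM2, STE24 and STE23 were named after their values were seen, most of them to show list members that did not pass.

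Replicate numbers are shared by both groups. The residuals of same-numbered arrays correlated at 0.351, 0.213 and 0.112, each over 0.1, so a fit with the replicate block was an alternative. The main fit did not pair the arrays. Differently numbered arrays correlated at -0.283 to 0.183, and 2 of those pairs exceeded 0.112. Other alternatives were median centring, quantile normalization, a filter on dim probe sets, an intensity trend, each array left out, and the 3 arrays of high 25S ribosomal RNA signal left out. Raising values to background was extended to FUS3, FAR1, HO and STE18 after seeing the data. Figures were drawn with matplotlib 3.10.9.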

Additional observations from a re-analysis of the deposited data

Results flagged for a closer look

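A total of 3517 probe sets have no gene name here and entered no test. Among them, 3 separated the groups with no overlap and a mean difference of over 1 log2 unit, higher in the deletion arrays. Groups did not overlap in this direction for 26.7% of the tested probe sets, with no minimum difference set. How many tested probe sets also differed by over 1 was not counted, so 3 is called neither many nor few. Probe set 1777669_at differed by 2.66, from between 8.77 and 9.02 in wild type to between 11.45 and 11.66. Probe sets 1776865_at and 1770587_at differed by 1.43 and 1.11. Of the unnamed probe sets, 0 reached the smallest difference of a member, 3.68.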

How the results depend on the processing

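The median difference of the members stayed between 4.21 and 4.34 under every alternative run, and MF(ALPHA)1 ranged from 7.14 to 7.98. Leaving out each array in turn gave 507 to 874 probe sets called higher, 284 to 560 lower, 1 to 4 of the maturation genes, 0 to 3 of the turnover genes, 0 to 2 of the a-specific genes and 3 to 5 of the neighbours. Without the 3 arrays of high 25S ribosomal RNA signal (wild type replicate 1 and deletion replicates 2 and 3), which leaves 1 deletion array that is assumed to vary like the others, 447 were higher; 1 maturation gene, 0 turnover genes, 3 a-specific genes and 2 neighbours were called. The a-specific genes called numbered 1 with the replicate block, 1 after median centring and 4 after quantile normalization; the neighbours called numbered 3 after either scaling. With the replicate block, 956 probe sets were higher and 604 lower, and beside the changes given in the report for AGA2, SEC61 and LST4 the genes called numbered 4 in maturation, 3 in turnover, 10 in agglutination and fusion and 6 in a-factor maturation, against 4, 2, 9 and 5 without it; the counts for regulators, the mating pathway and the other haploid-specific genes did not change. Differences of genes that did not pass turned sign without wild type replicate 2 (SIR1 0.03, SIR2 0.00, STE6 0.01) and without deletion replicate 1 (SIR1 0.01, MCM1 -0.01, MFA1 0.04, STE6 0.02); with each array left out in turn these genes ran from -0.13 to 0.03 (SIR1), -0.16 to 0.00 (SIR2), -0.08 to 0.02 (STE6), -0.01 to 0.08 (MCM1) and -0.21 to 0.04 (MFA1). The cause of these changes was not tested. Each member has 1 probe set, so averaging probe sets changed nothing. Values near background limit the fold of the pheromone genes, FUS3, HO, FAR1 and STE18.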
